A study of Komagataella phaffii with 13 samples.

Results

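The nutrient signalling genes TOR, Sch9, Tap42, Gcn4 and PCL5 of Pichia pastoris (Komagataella phaffii) were followed through a high-cell-density fed-batch fermentation. They were chosen by their protein names in the study's gene tables, with earlier results of these data known. Their values did not enter the rule, but the study chose the genes of its tables on these samples. They make up 5 of the 5439 identifiers in the expression data, and all 5 are among the 5100 with a mean level of at least 1 FPKM. RNA was sequenced from 13 samples of a phytase-producing GS115 strain, with 1 library for each condition. B_10 is the yeast cell culture on glycerol at 10 h, G_3 the glycerol feed after 3 h, GM_2 the feed of glycerol and methanol after 2 h, and M_12 to M_120 were drawn every 12 h of methanol induction. According to the study, a single production fermentation was sampled. The 10 methanol libraries are then serial samples of that culture and not replicates. The labels differ from that description in 3 ways: they call B_10 a bench-scale batch, they give each methanol sample a strain number of its own, upward from GS116 to GS125, and they describe an extraction of retinas. If the first of these is right, every comparison with B_10 is also a comparison of fermentation scale.

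The target of rapamycin kinase (TOR) is the growth regulator that yeasts use to read nitrogen and amino acid supply. In Saccharomyces cerevisiae its signal divides into a branch through the kinase Sch9, which promotes ribosome synthesis and growth, and a branch through Tap42, which binds phosphatases related to PP2A and sets their activity when TOR is active. Gcn4 is the transcription activator of amino acid synthesis genes; its protein is made mainly when amino acids run short, and Pcl5, a cyclin of the kinase Pho85, directs its phosphorylation and so its destruction. In S. cerevisiae the PCL5 gene is itself a target of Gcn4. These roles come from S. cerevisiae and were not measured here: the data hold transcript levels only.

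Levels are given as FPKM, fragments per kilobase of transcript scaled to library size. This adjusts for gene length and depth, but not for shifts in RNA composition between libraries. A level is a share of the RNA in its library, so a lower transcript amount and a larger amount of other RNA cannot be told apart. The libraries held 23452894 to 42621774 fragments, recovered from the steps between low values. Tap42 was counted with 382 to 1535 fragments in each library and so had a 95% counting interval of up to 10.0% on either side. The other genes had 2742 fragments or more, and their intervals reached 3.74% at most. These intervals cover counting error only and say nothing about a second culture. AOX1, the alcohol oxidase of methanol use, stood at 18912 to 33180 FPKM in the methanol libraries, 928 FPKM in GM_2, 38.2 FPKM in G_3 and 11.3 FPKM in B_10. GUT1, the glycerol kinase, stood at 58.3 to 115 FPKM in the methanol libraries and at 1202 to 2395 FPKM in the other 3, so both genes followed the feeds that the labels name.

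Gcn4 and PCL5 were abundant and the other 3 genes were not. Over the 13 libraries Gcn4 averaged 1701 FPKM, which made it number 103 of the 5100 genes, and PCL5 averaged 979 FPKM, number 208. Sch9 averaged 71.6 FPKM (number 2112), TOR 32.9 FPKM (number 3624) and Tap42 21.4 FPKM (number 4343).

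TOR was lowest before methanol entered the feed and highest at the end of methanol induction. Its level was 18.1 FPKM in B_10, 18.0 FPKM in G_3 and 27.9 FPKM in GM_2. At the successive methanol hours from M_12 to M_120 it was 30.9, 31.4, 36.2, 34.7, 36.0, 36.6, 32.5, 40.0, 38.1 and 47.1 FPKM. All 10 methanol libraries lay above the 3 earlier libraries, and B_10 and G_3 could not be told apart within counting error. Taken singly, such positions were common. All methanol libraries lay above B_10 in 38.2% of all genes, above G_3 in 35.1% and above GM_2 in 32.7%. In order of level, 7 of the 12 neighbouring pairs of libraries had counting intervals that overlapped. M_120 stood clear at the top, and GM_2 stood clear of M_12 above it and of B_10 below it.

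Sch9 had a single peak in the mixed feed. Its level was 32.3 FPKM in B_10, 36.1 FPKM in G_3 and 187 FPKM in GM_2. At the successive methanol hours it was 50.5, 86.4, 63.2, 58.0, 76.6, 62.2, 80.0, 59.8, 68.8 and 70.6 FPKM. GM_2 lay above every methanol library, as in 35.1% of all genes. B_10 and G_3 lay below every one, as in 38.2% and 35.1% of all genes. The methanol hours had no order: M_24, M_84 and M_60 were the highest and M_12 the lowest. Counting intervals overlapped in 5 of the 12 neighbouring pairs, and those of M_12, G_3 and B_10 were separate from each other.

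Tap42 was highest in the libraries without methanol, where TOR was lowest. It stood at 34.3 FPKM in B_10, 33.7 FPKM in G_3 and 19.3 FPKM in GM_2. At the successive methanol hours it was 19.7, 21.0, 19.1, 17.6, 19.6, 20.7, 18.9, 16.9, 16.2 and 21.5 FPKM. B_10 and G_3 lay above all the methanol libraries, as in 38.1% and 35.7% of all genes, while GM_2 lay among them. In order of level the counting intervals overlapped in 11 of the 12 neighbouring pairs, and the exception was the gap between G_3 and M_120, the highest methanol library.

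Gcn4 had its lowest level early in methanol and its highest in the middle of it. Its level was 1078 FPKM in B_10, 1184 FPKM in G_3 and 1498 FPKM in GM_2. At the successive methanol hours it was 898.9, 1240.0, 1811, 1736, 2712, 2269, 1789, 1726, 1876 and 2291 FPKM. The 3 earlier libraries all lay within the methanol range, between M_12 at the bottom and M_60 at the top. Counting intervals overlapped in 3 of the 12 neighbouring pairs, and M_60 and M_12 stood clear at either end.

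PCL5 followed the same course within methanol but not before it. Its level was 662 FPKM in B_10, 884 FPKM in G_3 and 206 FPKM in GM_2. At the successive methanol hours it was 318, 535, 1048, 1216, 2332, 1612, 1003, 882, 935 and 1092 FPKM. GM_2 was the lowest of all 13 libraries, M_12 the next, and M_60 the highest, while B_10 and G_3 lay within the methanol range. Counting intervals overlapped in 1 of the 12 neighbouring pairs, G_3 and M_96.

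**Figure D1:**
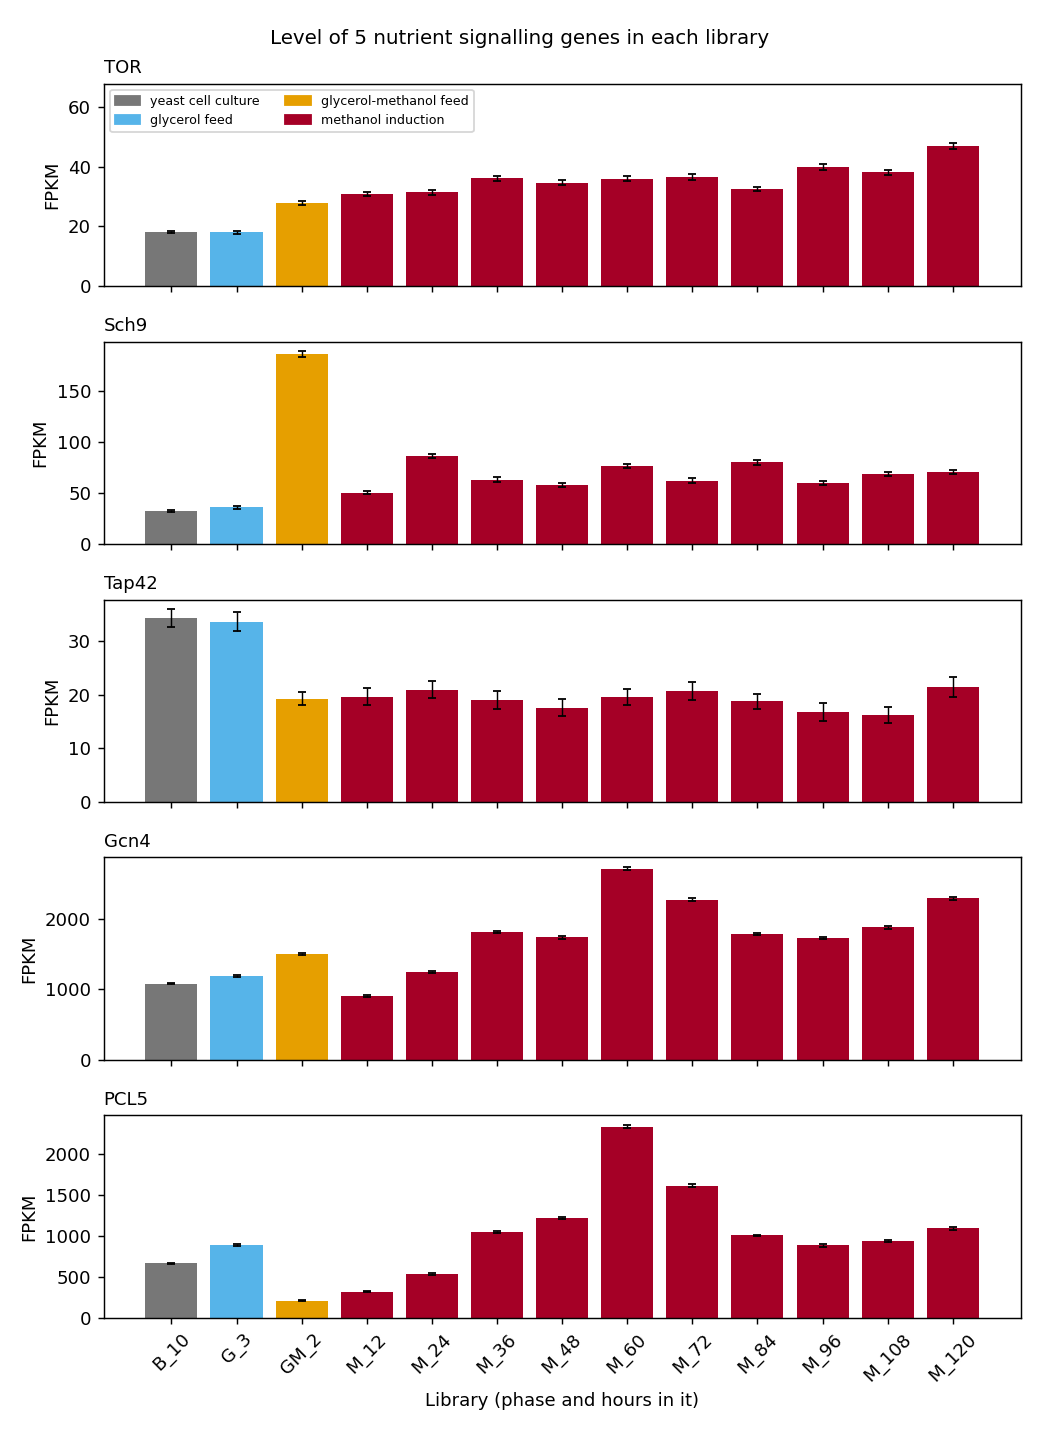
Level of each gene in FPKM (linear axes from 0) in the 13 libraries, in the order of the fermentation; colours mark the phase and error bars are 95% counting intervals within the single library. TOR is at 30.9 FPKM or above in methanol, Sch9 peaks at 187 FPKM in GM_2, Tap42 is highest in B_10 and G_3, and Gcn4 and PCL5 both peak in M_60 at 2712 and 2332 FPKM.

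Differences between phases were taken on the scale of log2(FPKM + 1). With 1 library per condition there is no test, so a gene was called by a rule of size: a difference of at least 1 on this scale, in the same direction in every library of the later phase. Differences below are given with the lowest and highest over the 10 methanol libraries. That range describes variation over hours and libraries.

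Methanol induction was compared with the yeast cell culture to ask how the pathway stood once methanol was the carbon source. None of the 5 genes was called, beside 8.61% of all 5100 genes called higher and 5.53% called lower. TOR differed by 0.96 (0.74 to 1.33) and was higher in all 10 libraries, but by 1 or more in 3 of them. Sch9 differed by 1.01 (0.63 to 1.39) and passed 1 in 5 of the 10. Tap42 differed by -0.80 (-1.04 to -0.65), lower in all 10 libraries and by 1 or more in a single one. For Gcn4 the difference was 0.74 (-0.26 to 1.33), with M_12 lower than B_10 and the other 9 higher. For PCL5 it was 0.63 (-1.06 to 1.82), with M_12 and M_24 lower than B_10 and the other 8 higher. TOR, Sch9 and Tap42 thus lay on 1 side of B_10 at every methanol hour, and Gcn4 and PCL5 on both. A gene on 1 side throughout is common in these libraries: 38.2% of all genes had B_10 below every methanol library, as TOR and Sch9 did, and 38.1% had it above every one, as Tap42 did. When the libraries were rescaled to equal sums without the 20 most abundant genes, TOR (1.20, 1.04 to 1.46) and Sch9 (1.22, 1.01 to 1.67) were called higher and Tap42 became -0.56. That rescaling moved the median of all genes to 0.24, against -0.01 as deposited, and the calls over all genes to 610 higher and 154 lower, against 439 and 282.

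The glycerol-methanol feed was compared with the yeast cell culture to see the first contact with methanol. Sch9 was called higher, by 2.49, and PCL5 lower, by 1.68 on the same scale (-1.68), beside 9.69% of all genes called higher and 7.02% called lower. A difference as high as that of Sch9 was reached by 1.35% of genes and one as low as that of PCL5 by 1.84%. Sch9, the growth kinase, and PCL5, the cyclin that marks Gcn4 for destruction, had the largest differences of the 5 genes, in opposite directions. TOR differed by 0.60, Gcn4 by 0.47 and Tap42 by -0.80, none of which passed the rule. For Tap42 the difference was as large in GM_2 as in the median of the methanol libraries, and for TOR it was smaller.

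The glycerol feed, which changes the supply of carbon but not its source, left the levels close to those of the yeast cell culture. None of the 5 genes was called, beside 2.47% of all genes called higher and 0.784% called lower. TOR differed by -0.01, Tap42 by -0.03, Gcn4 by 0.14, Sch9 by 0.15 and PCL5 by 0.42, the largest of the 5. Under the rescaling the signs of TOR (0.12) and Tap42 (0.11) turned, so neither has a direction here.

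**Figure D2:**
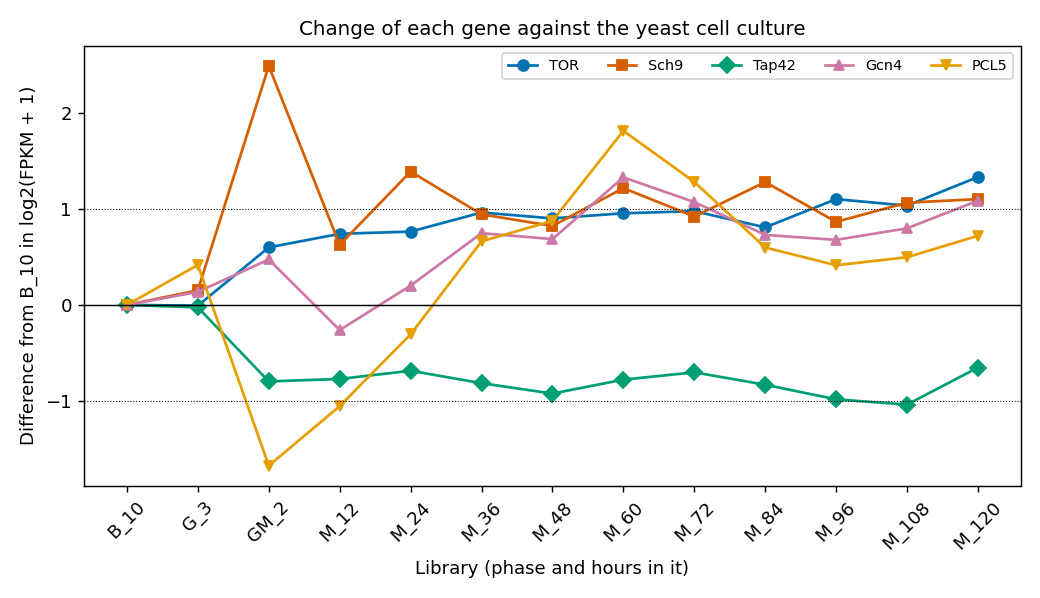
Difference of each gene from the yeast cell culture in log2(FPKM + 1) for the 13 libraries in the order of the fermentation; dotted lines mark a difference of 1 in either direction. Sch9 reaches 2.49 and PCL5 -1.68 in GM_2, TOR and Tap42 part in GM_2 and stay apart, and PCL5 climbs to 1.82 in M_60 with Gcn4 at 1.33.

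Methanol induction was then set against the glycerol-methanol feed, the phase it followed. Sch9 was called lower in methanol, with a difference of -1.49 (-1.87 to -1.10) that passed 1 in 10 of 10 libraries, beside 4% of all genes called lower and 4.39% called higher. Under the rescaling M_24 came to -0.98 and the call was lost. PCL5 differed by 2.31 (0.62 to 3.49) and passed 1 in 9 of 10 libraries; M_12 was the exception, and without it PCL5 was called higher. TOR differed by 0.36 (0.14 to 0.73) and Gcn4 by 0.27 (-0.74 to 0.86). Tap42 differed by 0.00 (-0.24 to 0.14), with GM_2 inside the range of the methanol hours. GM_2 lay below all methanol libraries for TOR and PCL5 and above all for Sch9, as it did in 32.7% and 35.1% of all genes.

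Against the glycerol feed, which does not depend on B_10 or its label, the picture of TOR, Sch9 and Tap42 was close to that with B_10. None of the 5 genes was called, beside 5.82% of all genes called higher and 3.16% called lower. Methanol induction differed from G_3 by 0.97 (0.75 to 1.34) for TOR, 0.85 (0.47 to 1.24) for Sch9 and -0.77 (-1.01 to -0.63) for Tap42. Gcn4 differed by 0.60 (-0.40 to 1.19) and PCL5 by 0.21 (-1.47 to 1.40), both with libraries on either side. G_3 lay below all methanol libraries in 35.1% of genes and above all in 35.7%. The mixed feed differed from G_3 by 2.34 for Sch9 and -2.09 for PCL5, both called, beside 6.71% of all genes called higher and 5.24% called lower, and by 0.61 for TOR, 0.34 for Gcn4 and -0.77 for Tap42. All comparisons that use the same library share its error.

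The step from the mixed feed to the first methanol library was large for the whole transcriptome: 20.6% of all genes differed by 1 or more between M_12 and GM_2. Of the 5 genes only Sch9 did so, at -1.87, while Gcn4 stepped by -0.74, PCL5 by 0.62, TOR by 0.14 and Tap42 by 0.03. Between consecutive methanol libraries few genes moved by as much, 3.08% at M_24 against M_12, and none of the 5 did. At the 8 later steps, up to M_120, the share was 0.863, 0.196, 0.98, 0.804, 0.216, 0.294, 0.275 and 0.118%, and between G_3 and B_10 it was 3.25%, again with none of the 5. PCL5 came nearest, with 0.97 between M_24 and M_36 and 0.94 between M_48 and M_60. At those steps 0.863% and 1.10% of all genes had as high a difference or higher. Gcn4 stepped by 0.55 and 0.64 at the same hours. After M_60, PCL5 stepped by -0.53 and -0.68 and Gcn4 by -0.26 and -0.34 at M_72 and M_84. M_60 was also the methanol library with the lowest AOX1, at 18912 FPKM, and whether that bears on either gene was not tested.

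Over the 10 methanol libraries the standard deviation in log2(FPKM + 1) was 0.79 for PCL5, 0.46 for Gcn4, 0.23 for Sch9, 0.18 for TOR and 0.13 for Tap42. The median over all genes was 0.15. A spread as large as that of PCL5 was found in 1.14% of genes, and one as large as that of Gcn4 in 5.06%. Tap42 was steadier than most, with 65.1% of genes at its spread or above.

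A straight line over the methanol hours was fitted with limma to all 5100 genes. Its coefficient is the fitted change in log2(FPKM + 1) between 12 h and 120 h. The fit treats the libraries as independent, although they are serial samples of a single culture. Its SE and p rest on that assumption and describe scatter around the line, not variation between cultures. TOR was the one gene of the 5 past the threshold, with 0.42 (SE 0.11, adjusted p = 0.0454 by Benjamini-Hochberg), beside 4.88% of all genes called higher and 2.8% called lower. After the rescaling the calls over all genes were 131 higher and 373 lower, against 249 and 143 as deposited, and TOR had 0.27 (limma adjusted p = 0.103). The call for TOR was not firm. It held in 7 of 17 alternative settings, with adjusted p of 0.0237 to 0.305 by limma, and was lost when M_12, M_24, M_48, M_72, M_96, M_108 or M_120 was left out. Without M_120, the highest library, the change was 0.29 (adjusted p = 0.204 by limma). Gcn4 had a larger coefficient with a wider error, 0.86 (SE 0.33, limma adjusted p = 0.126), and PCL5 likewise, 1.04 (SE 0.64, limma adjusted p = 0.339). Both coefficients leaned on M_12: without it Gcn4 had 0.46 (limma adjusted p = 0.341) and PCL5 0.22 (limma adjusted p = 0.829). A line describes neither course well, since both genes peaked in M_60. Sch9, at 0.15 (SE 0.21, limma adjusted p = 0.703), and Tap42, at -0.10 (SE 0.13, limma adjusted p = 0.661), were within their errors of 0, and the sign for Sch9 turned under the rescaling (-0.01) and without M_12 (-0.10). For Tap42 the change was -0.27 without M_120 and -0.01 without M_108.

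The 10 pairs of genes were compared over the methanol libraries to see which moved jointly and which apart. The points are serial samples of a single culture and share their libraries, so the correlations are descriptions without a p. Gcn4 and PCL5 moved together, with Pearson r of 0.96 and Spearman rho of 0.82 over 10 libraries, and in 8 of 9 steps between consecutive libraries they went in the same direction. The exception was the step from M_36 to M_48, where PCL5 changed by 0.21 and Gcn4 by -0.06. With each library left out in turn r stayed between 0.912 and 0.981, and without the 2 libraries farthest from the median of Gcn4 it was 0.861. Among 4975 genes with a mean of at least 10 FPKM, PCL5 ranked number 25 by its r with Gcn4 over methanol, and Gcn4 number 53 by its r with PCL5. TOR and Gcn4 had r of 0.63 and rho of 0.59 (r of 0.40 under the rescaling), and TOR and PCL5 r of 0.43 and rho of 0.33 (r of 0.19 without M_12 and 0.21 under the rescaling). The other 7 pairs lay between -0.03 and 0.34, and these values were not stable. Sch9 and Gcn4, at 0.34, came to -0.20 without M_12 and 0.73 without M_24, and Sch9 and PCL5, at 0.28, to -0.26 and 0.64. Sch9 and Tap42, at 0.27, came to 0.44 without M_12 and 0.09 without M_24. TOR and Sch9, at -0.01, came to -0.38 without M_12, 0.26 without M_24 and -0.50 under the rescaling, which also gave -0.39 for Tap42 and Gcn4 and -0.33 for Tap42 and PCL5. Of the 10 pairs, Gcn4 and PCL5 were the one whose r stayed above 0.86 in every alternative.

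Over all 13 libraries the pattern changed, because the phases then entered. Gcn4 and PCL5 came to r of 0.73 and rho of 0.83, with GM_2 apart from the other libraries. TOR and Tap42, which had r of -0.02 over methanol, came to -0.84 (rho -0.47), and Sch9 and Tap42 to -0.58 (rho -0.25). Among the 4975 genes, ordered from the highest r down, Tap42 was number 4510 by its r with TOR. TOR was number 4622 by its r with Tap42. Many other genes thus ran against TOR or Tap42 at least as strongly. The opposite course of TOR and Tap42 thus lay in the difference between B_10 and G_3 and the libraries that followed. Within methanol the r of TOR and Tap42 was not stable. It became -0.61 without M_120, in which TOR and Tap42 both had their highest methanol level, and 0.14 without M_24. The rescaling gave -0.44.

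**Figure D3:**
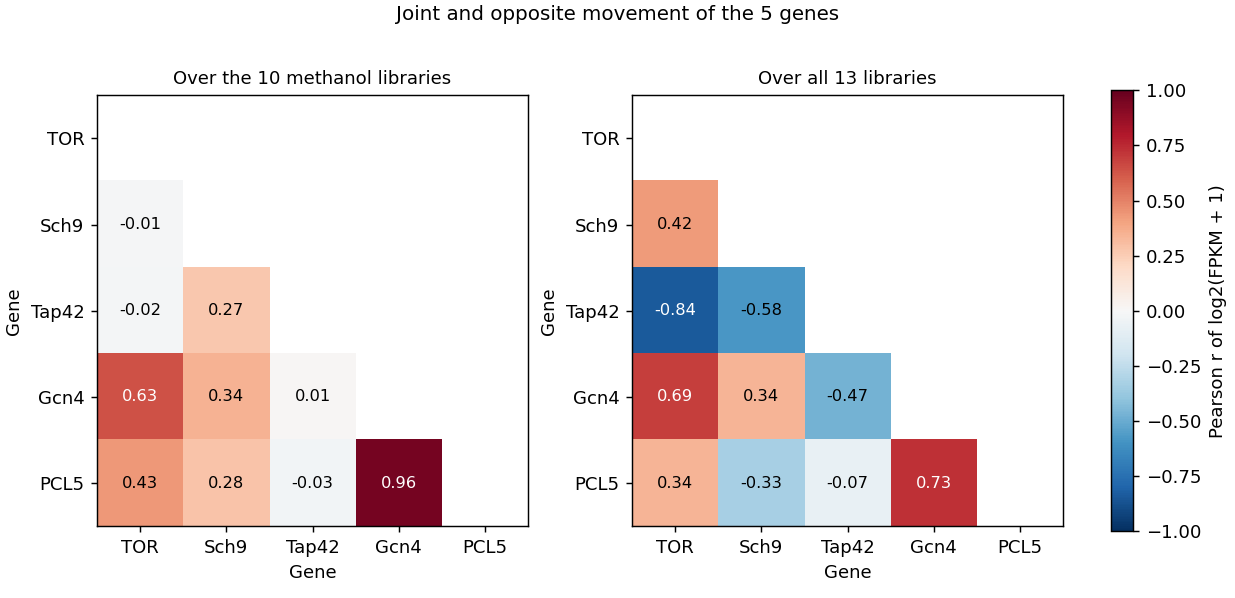
Pearson r of log2(FPKM + 1) for the 10 pairs of genes over the 10 methanol libraries (left) and over all 13 libraries (right), from -1 (blue) to 1 (red). Gcn4 and PCL5 have 0.96 in methanol and 0.73 over all, and TOR and Tap42 -0.02 in methanol and -0.84 over all.

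The ratio of 2 levels shows the same without a scale. PCL5 stood at 0.614 times the FPKM of Gcn4 in B_10, 0.747 times in G_3 and 0.138 times in GM_2. At the successive methanol hours the ratio was 0.354, 0.431, 0.579, 0.701, 0.860, 0.711, 0.561, 0.511, 0.498 and 0.476. It climbed without a break as far as M_60 and came down without a break after it, so PCL5 varied more than Gcn4 did and the genes were not in a fixed proportion. In GM_2 the cyclin was at its lowest share while Gcn4 itself was higher than in B_10 and G_3. The ratio of TOR to Tap42 was 0.527 in B_10, 0.534 in G_3 and 1.45 in GM_2, and higher still in each methanol library (median 1.87, highest 2.37). TOR was thus below Tap42 in B_10 and G_3 and above it in every library with methanol.

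**Figure D4:**
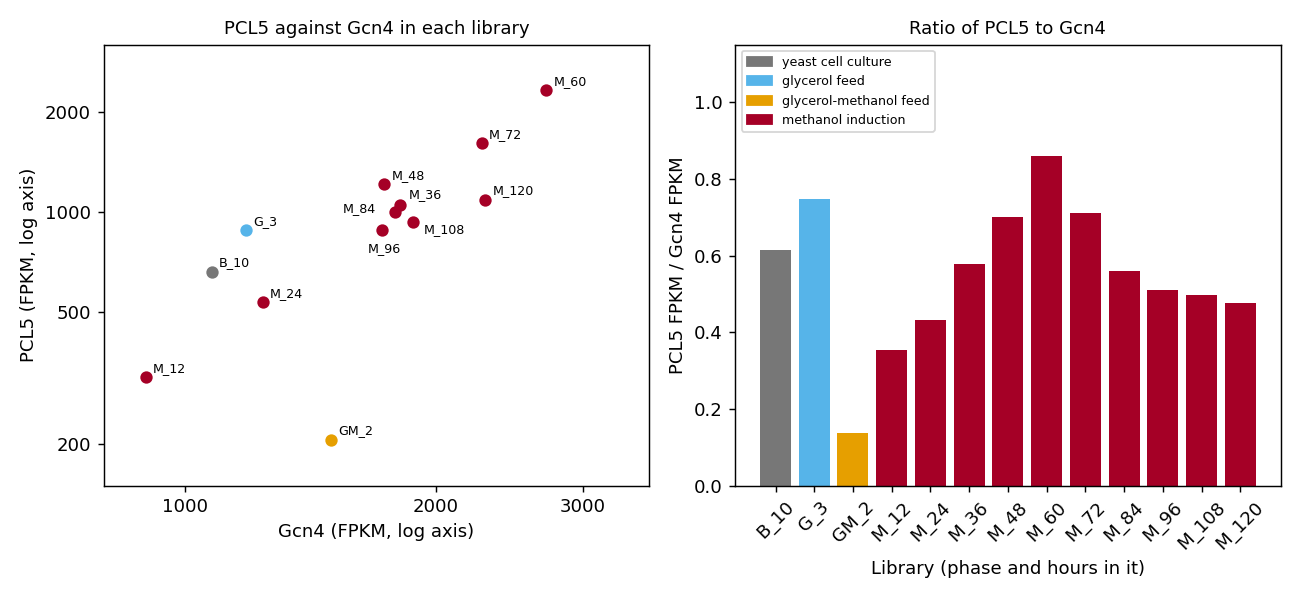
Left, PCL5 against Gcn4 in FPKM on log axes, 1 point per library; right, the ratio of their FPKM by library on a linear axis from 0, with colours for the phases. The methanol libraries extend between M_12 and M_60, and at like Gcn4 PCL5 is higher in M_48 than in M_96 and in M_72 than in M_120. GM_2 lies below all of them with a ratio of 0.138, and the ratio climbs to 0.860 in M_60.

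The genes whose course over the 13 libraries was most like that of each member, by Pearson r of log2(FPKM + 1) among the 4975 genes, came at 0.976 for TOR, led by PAS_chr2-1_0472, PAS_chr1-3_0150 and PAS_chr3_0986. For Sch9 they were PAS_chr2-1_0492 (0.952), PAS_chr4_0201 (0.946) and PAS_chr4_0287 (0.930). All 3 stood higher in GM_2 than in B_10 and than their methanol median, which the choice by likeness to Sch9 favours. PAS_chr2-1_0492, for example, stood at 594 FPKM in GM_2, with a methanol median of 242 FPKM and 75.2 FPKM in B_10. For Tap42 they were PAS_chr2-1_0100 (0.966), PAS_chr4_0730 (0.961) and PAS_chr3_1051 (0.958). Gcn4 had the least close companions, PAS_chr1-1_0482 (0.907), PAS_chr1-4_0156 (0.896) and PAS_chr3_1055 (0.895). PCL5 had PAS_chr1-4_0326 (0.974), PAS_chr3_0355 (0.968) and PAS_chr3_1113 (0.965). None of these 15 identifiers is among the genes named elsewhere in this report, and no name is given to them here. Among the members themselves the nearest over 13 libraries was PCL5 for Gcn4, at number 76.

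Sch9 does not act alone, and 3 kinases known to work beside it in S. cerevisiae are in the study's tables. RIM15, a kinase of entry into quiescence that Sch9 and PKA hold back, stood at 26.3 to 34.4 FPKM in methanol, 24.4 FPKM in GM_2, 12.8 FPKM in G_3 and 15.5 FPKM in B_10. PKA, the kinase that reads carbon supply through cAMP, stood at 65.4 to 85.3 FPKM in methanol, 36.0 FPKM in GM_2, 50.8 FPKM in G_3 and 41.6 FPKM in B_10. ATG1, the kinase that starts autophagy and is held back by TOR, stood at 87.2 to 212 FPKM in methanol, 33.0 FPKM in GM_2, 59.7 FPKM in G_3 and 45.7 FPKM in B_10. For each of these kinases all methanol libraries lay above the other 3. Taken singly these positions were common: B_10 lay below every methanol library in 38.2% of all genes, G_3 in 35.1% and GM_2 in 32.7%. The share of genes with all 3 positions at once was not computed. Against B_10 the differences were 1.67 (0.92 to 2.19) for ATG1, 1.01 (0.72 to 1.10) for RIM15 and 0.91 (0.64 to 1.02) for PKA, and 0 of 3 were called, beside 8.61% of all genes called higher and 5.53% called lower. Against GM_2, 1 of the 3 was called higher, ATG1 by 2.13 (1.37 to 2.65), beside 4.39% of all genes. In GM_2, where Sch9 was at its peak, PKA differed from B_10 by -0.20, ATG1 by -0.46 and RIM15 by 0.62, and none of them passed the rule.

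The amount of Gcn4 protein in S. cerevisiae is set at translation, through phosphorylation of the alpha subunit of initiation factor eIF2, and 2 genes of that step are in the tables. The gene named eIF2a stood at 107 to 161 FPKM in methanol, 152 FPKM in GM_2, 236 FPKM in G_3 and 338 FPKM in B_10. It was called lower than B_10 both in methanol, by -1.37 (-1.65 to -1.06), and in GM_2, by -1.15, but under the rescaling neither call held. The gene named PERK, a kinase of that subunit, stood at 15.4 to 17.8 FPKM in methanol, 15.1 FPKM in GM_2, 12.9 FPKM in G_3 and 12.7 FPKM in B_10. Its difference in methanol was 0.42 (0.26 to 0.46), which did not pass the rule. Over the methanol hours limma found no trend past the threshold for either gene or for the 3 kinases, with adjusted p between 0.474 and 0.759 and unadjusted p of 0.242 or more.

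**Figure D5:**
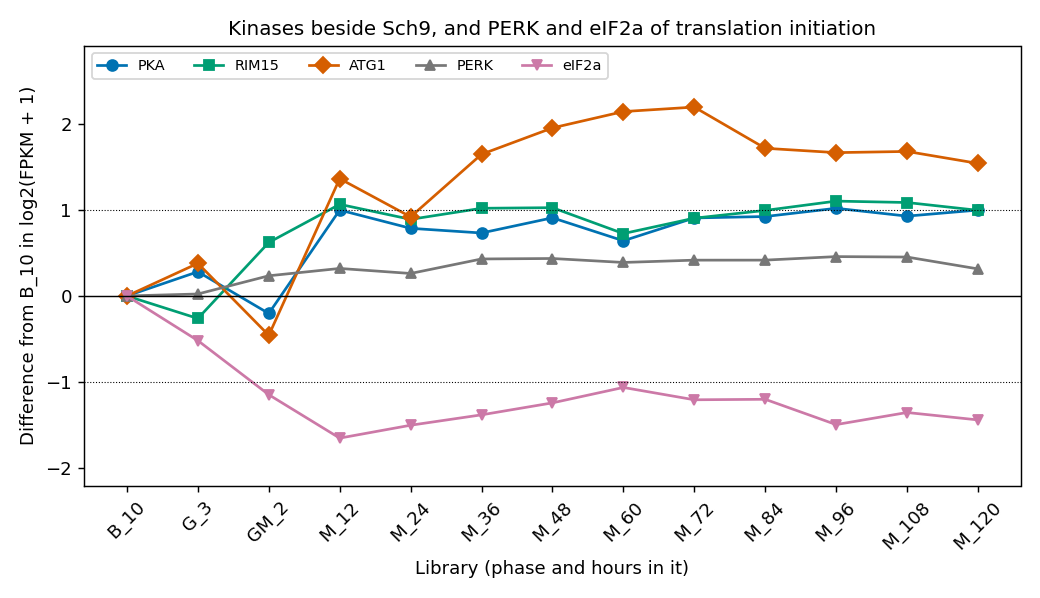
Difference from the yeast cell culture in log2(FPKM + 1) for the kinases PKA, RIM15 and ATG1 and for PERK and eIF2a, in the 13 libraries; dotted lines mark a difference of 1 in either direction. ATG1 reaches 2.19 in methanol after -0.46 in GM_2, PERK reaches 0.46 at most, and eIF2a is at -1.06 or below in every methanol library.

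TOR is best known for holding back autophagy, and 23 other genes of the tables belong to the yeast autophagy pathway of KEGG. In methanol against B_10, 6 of the 23 were called higher and 1, eIF2a, lower, beside 8.61% of all genes called higher and 5.53% called lower. The median difference of the list was 0.99, beside -0.01 over all genes. The 6 were the vacuolar protease PRB1, the kinase Slt2 and ATG2, ATG7, ATG8 and ATG9, which build the autophagosome. In GM_2 against B_10, 2 were called higher and 1 lower, shares near or below those of all genes (9.69% and 7.02%), with a median of 0.23 beside 0.04. In G_3 against B_10 none was called, beside 2.47% of all genes higher and 0.784% lower (median 0.28 beside 0.00). Methanol against GM_2 called 6 higher and none lower, beside 4.39% and 4% of all genes, with a median of 0.79 beside 0.00. Against G_3, methanol called fewer, 2 higher and none lower, beside 5.82% and 3.16% of all genes. The median there was 0.70 beside -0.01. The list came from a study that chose its genes on these samples, so its direction is not independent evidence. With the libraries rescaled, methanol against B_10 called 12 higher and none lower, at a median of 1.27. Over all 5100 genes the same rescaling called 610 higher and 154 lower, at a median of 0.24.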

How the data were processed

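RNA of 13 fermentation samples, 1 library for each condition, was sequenced. Paired-end reads were aligned by the authors with HISAT2 2.0.5. The deposited FPKM values are already scaled to gene length and library size. No genome build or counting tool is given in the sources used here. Samples were grouped by the stage in their labels. Fragments per library were recovered from FPKM times coding length (89.3 to 93.0% of 300 values checked in each library were whole within 0.01 fragments), and 5040 identifiers matched the reference table.

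The 5100 genes with a mean of at least 1 FPKM were kept and put on the scale log2(FPKM + 1). Phases were compared by the rule of size, without a p-value. limma 3.58.1 in R 4.3.3, with its empirical Bayes trend, fitted the hours of the 10 methanol libraries (8 residual degrees of freedom), two-sided, with Benjamini-Hochberg adjustment over all genes and a threshold of 0.05. Other work used Python 3.11.15, numpy 2.4.6, pandas 2.3.3, scipy 1.17.1 and matplotlib 3.10.9. Both procedures were tested on simulated data. The simulated libraries were independent, and the rule of size met effects well past its threshold. Those tests therefore say nothing about serial samples or about differences near the threshold. The text names the 5 genes, the 3 genes most like each, matched list members, called members of the autophagy list, and AOX1 and GUT1 as checks of the feeds. The members and lists were chosen with earlier results of these data known. Of the lists planned by S. cerevisiae names, 3 kinases and 2 eIF2 genes matched; the rest, and a promoter motif search, were not run because the annotation used here gives no products or sequences. The autophagy list was added after the data were seen. Alternatives were pseudocounts of 0.1 and 5, no filter or a minimum mean of 10 FPKM, thresholds of 0.5 and 1.5, rescaling without the 20 most abundant genes, other limma settings and single methanol libraries left out.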

Additional observations from a re-analysis of the deposited data

How the results depend on the processing

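With a threshold of 0.5 in place of 1, members called were 2 higher and 1 lower for methanol induction against the yeast cell culture, 2 and 2 for the glycerol-methanol feed against the yeast cell culture, 1 higher for methanol induction against the glycerol-methanol feed, 1 and 1 for methanol induction against the glycerol feed, and 2 and 2 for the glycerol-methanol feed against the glycerol feed. With a threshold of 1.5, methanol induction against the glycerol-methanol feed called 0 lower, beside 57 of all genes. Rescaling without the 20 most abundant genes gave 2 higher for methanol induction against the yeast cell culture, beside 610 of all genes. Against the glycerol-methanol feed it gave 0 lower, beside 158 of all genes. Over all genes the rescaled calls were 655 higher and 246 lower, against 494 and 358, for the glycerol-methanol feed and 190 and 27, against 126 and 40, for the glycerol feed, each set against the yeast cell culture, and 355 and 115, against 297 and 161, for methanol induction set against the glycerol feed. Leaving out each methanol library in turn gave 0 to 1 members higher against the glycerol-methanol feed (1 without M_12). Of 240 alternative values of the members' phase differences, 236 moved by less than the spread over the methanol libraries and 4 moved by more, all under the rescaling: TOR to 1.20 and Tap42 to -0.56 for methanol, Tap42 to -0.63 for the mixed feed and to 0.11 for the glycerol feed, each against the yeast cell culture. Most of the 240 were medians with a single methanol library left out or changes of pseudocount, which could move little. The same spread also served for differences in which no methanol library enters. The 236 are therefore no measure of how firm the differences are. The limma trend of TOR was 0.27 after rescaling (adjusted p = 0.103), 0.42 without the empirical Bayes trend (adjusted p = 0.0513), 0.19 for libraries from 72 h against those up to 60 h (adjusted p = 0.305) and 0.29 to 0.46 with each library left out; that of Sch9 was -0.0063 after rescaling (limma adjusted p = 0.987) and -0.10 to 0.36 with each library left out. Over all genes the trend called 249 higher and 143 lower, 107 to 335 and 38 to 255 with each library left out, 131 and 373 after rescaling, and 70 and 51 for the split at 72 h. The cause was not tested in any of these. Every library left out in turn, other than M_12 and M_60 for the phase differences and correlations, and the correlation without the 2 farthest libraries were chosen after the data were seen. No paired analysis was possible because each condition has 1 library. Depth limits Tap42 most, with counting intervals of up to 10.0%, and the lack of a second culture limits every gene.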
